A study of Mus musculus with 2 samples.

Results

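The 10 genes described here belong to the bone morphogenetic protein (BMP) pathway and its readout. They are the ligands *Bmp4*, *Bmp5* and *Bmp6*, the antagonist *Grem1*, the receptors *Bmpr2* and *Bmpr1b*, the inhibitory SMAD *Smad6* and the ID genes *Id1*, *Id2* and *Id3*. They were found by symbol among the 31053 genes of both count matrices, each symbol naming 1 gene. *Bmp6*, *Bmpr2* and *Smad6* RNA was highest in blood endothelium, *Bmp5* in fibroblasts and smooth muscle, and *Bmp4* was spread over vessels, fibroblasts and alveolar epithelium. *Id1* and *Id3* were highest in endothelium, whereas *Id2* was highest in immune cells and, among epithelial cells, in alveolar type 2 (AT2) cells. No member was at least 2-fold higher in the *Pclaf* KO library in any of the 16 cell classes that could be compared. Once 1 cluster was left out, *Bmp4* in ciliated-like cells was past that mark, on 7 WT UMIs. A list of 10 AT2 markers was higher in KO in ciliated-like cells too. *Bmp5* in general capillary-like cells also passed the mark once called doublets were removed. *Smad6* did so in ciliated-like cells in which no endothelial marker was counted.

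BMP ligands are secreted dimers that bring together type II receptors, such as BMPR2, and type I receptors, such as BMPR1B, on the receiving cell. The active receptors phosphorylate SMAD1, SMAD5 and SMAD8, which enter the nucleus with SMAD4 and switch on ID genes and the inhibitor *Smad6*. Gremlin 1 binds BMP ligands outside the cell and blocks them. In the lung, BMP signalling is known for the upkeep of vessels, where loss of *BMPR2* underlies heritable pulmonary arterial hypertension, and for the control of alveolar epithelial progenitors after injury. ID proteins are helix-loop-helix factors without a DNA-binding region that hold back other factors of that class, and signals besides BMP regulate them too.

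The study compared lung cells of *Pclaf* WT mice with those of *Pclaf* KO mice, which lack PCLAF, a PCNA-binding protein of proliferating cells that acts on the DREAM complex, a regulator of cell cycle genes. Both groups were 8 to 10 weeks old, had received bleomycin, a drug that injures the alveoli, at 1.35 U/kg, and were taken 1 week later. Each group is 1 single-cell RNA library of cells labelled as sorted epithelium (negative for Cd31 and Cd45, positive for Epcam). With 1 library per group no difference between genotypes could be tested, and genotype cannot be told apart from animal, sort and library.

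The libraries went against their sort label to different degrees. Epithelial cells made up 5.30% of the 30187 kept cells of the WT library and 71.1% of the 15637 of the KO library, endothelial cells 27.9% and 2.88%, immune cells 45.0% and 3.73%, and mesenchymal cells 12.4% and 18.8%. The median depth of a kept cell was 2127 UMIs (unique molecular identifiers, each 1 counted RNA molecule) in WT and 5957 in KO. Both matrices, with 30669 barcodes in WT and 17172 in KO, hold more than the number of cells that the methods give as loaded. Of the barcodes, 163 occur in both libraries. *Xist*, transcribed in female cells, was at 254 CPM (counts per 1000000 UMIs) in WT and 498 CPM in KO, although the methods name male mice. Over all kept cells *Pclaf* itself had 39.3 CPM in the WT and 5.19 CPM in the KO library, and in *Sftpd*-led epithelial cells it had 189 CPM (126 to 271) in WT and 102 CPM (90.4 to 115) in KO. The latter are 1 cluster named from 9 detected cycling markers, but its top 10 genes hold none of these and 5 AT2 markers, so it is called by its leading gene. Whether the *Pclaf* reads of KO lie outside a deleted part of the gene was not tested.

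Cells were grouped into 35 classes of clusters, called "-like" where named from marker genes and "-led" where named by a leading gene alone. The AT2-like class had 10 of 10 AT2 markers detected in 4 of its 5 clusters and 8 in the other one, which *Lcn2* led. The Krt8 transitional-like class, a stressed alveolar state led by *Krt18*, *Cdkn1a*, *Sfn* and *Krt8*, had 11 of its 12 markers detected. UMIs were summed over the cells of a class and library, and a level is given in CPM, scaled to all UMIs of that class and library, with its exact Poisson 95% interval in parentheses. A ratio is the log2 of the KO level over the WT level, with an exact conditional 95% interval. These intervals cover counting error only, not the spread between mice. A class was compared where each library had at least 50 of its cells, and a gene where it had at least 20 UMIs over both libraries. Where a class drew on its clusters unequally in the libraries, a ratio within clusters is given too, which compares the libraries inside each cluster and joins the comparisons with Mantel-Haenszel weights. The *Slc34a2*-led cluster, for example, held 197 of the 508 AT2-like cells of WT and 259 of the 6328 of KO. In sums of this kind, fewer expressing cells and less RNA per cell cannot be told apart.

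Upstream sequence (RefSeq, GRCm38.p6) was at hand for 9 of the 10 members. The sequences of *Smad6*, *Id2* and *Id3* are printed as those of response genes that lay in different classes, *Smad6* mainly in vessels, *Id2* in immune and AT2-like cells, and *Id3* in vessels and mesenchyme. Each is the 250 bases before a RefSeq start of the gene, 5′ to 3′ on the gene's strand. The windows lie at chr9:64022060-64022309 (minus), chr12:25096093-25096342 (minus) and chr4:136143572-136143821 (plus). Those of *Id2* and *Id3* fall inside the gene spans of the GENCODE annotation given below, and that of *Smad6* falls before its span. Capitals mark GTCT on either strand (so also AGAC), a core motif of SMAD proteins, and GGCGCC, a GC-rich motif bound by SMAD1 and SMAD5.
Smad6: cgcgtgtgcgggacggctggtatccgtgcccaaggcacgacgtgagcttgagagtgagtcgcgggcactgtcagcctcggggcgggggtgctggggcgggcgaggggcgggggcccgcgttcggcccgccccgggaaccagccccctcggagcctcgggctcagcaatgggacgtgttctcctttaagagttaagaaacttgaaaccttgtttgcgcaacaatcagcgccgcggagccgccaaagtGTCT
Id2: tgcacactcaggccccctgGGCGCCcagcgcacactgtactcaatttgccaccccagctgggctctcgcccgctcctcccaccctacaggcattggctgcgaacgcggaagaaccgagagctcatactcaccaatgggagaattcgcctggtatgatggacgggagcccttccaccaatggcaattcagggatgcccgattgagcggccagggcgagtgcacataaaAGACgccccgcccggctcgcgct
Id3: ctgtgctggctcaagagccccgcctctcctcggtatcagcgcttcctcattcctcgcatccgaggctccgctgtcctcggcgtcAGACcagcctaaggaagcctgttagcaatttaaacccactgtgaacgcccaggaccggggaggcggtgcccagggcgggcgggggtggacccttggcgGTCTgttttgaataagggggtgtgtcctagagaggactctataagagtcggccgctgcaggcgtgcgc
The *Smad6* window holds GTCT 1 time and GGCGCC 0 times, the *Id2* window each of them 1 time, and the *Id3* window GTCT 2 times and GGCGCC 0 times. Of 32851 such windows, 82.9% hold GTCT on either strand, with a median of 2 matches, and 9.59% hold GGCGCC. A match describes the letters only.

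*Bmp4* (chromosome 14, 46383520 to 46390669, minus strand, GRCm38) encodes a ligand of lung branching. In the WT library it was at 123 CPM (101 to 149.8) in arterial-like, 118 CPM (102 to 136) in venous-like and 107 CPM (98.3 to 117) in alveolar fibroblast-like cells. Adventitial fibroblast-like cells had 101 CPM (75.8 to 132) and Krt8 transitional-like cells 97.1 CPM (79.6 to 117), and each of these 5 overlapped the next in order by its interval. AT2-like cells had 71.1 CPM (61.1 to 82.4) and general capillary-like cells 36.4 CPM (33.3 to 39.7). With every cell thinned to 1000 UMIs, 7.91% of AT2-like cells of WT had a *Bmp4* UMI, against 0.346% of B cell-like cells, which should lack it (median UMIs before thinning 4815 and 1899).

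Within the alveolar epithelium, *Bmp4* was higher in Krt8 transitional-like than in AT2-like cells in both libraries, but in WT the intervals overlapped. In KO the levels were 68.9 CPM (66.5 to 71.4) in AT2-like, 113 CPM (106 to 120.2) in Krt8 transitional-like and 134 CPM (116 to 155) in AT1-like cells, the flat cells of gas exchange. The WT library held 49 AT1-like cells, under the limit, at 95.5 CPM (58.3 to 147). Airway classes were lower, with 19.5 and 26.2 CPM in club-like and 9.74 and 18.4 CPM in ciliated-like cells of WT and KO. AT2-like cells held 6.47% of all *Bmp4* UMIs of the WT library and 43.5% of those of KO, while alveolar fibroblast-like cells held 19.7% and 14.9%.

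Between libraries the *Bmp4* log2 ratio was −0.05 (−0.26 to 0.18) in AT2-like and 0.22 (−0.07 to 0.52) in Krt8 transitional-like cells, both with intervals that hold 0. In alveolar fibroblast-like cells it was 0.26 (0.11 to 0.41), with 128 CPM (120.4 to 136) in KO. That class drew on different clusters in the libraries. The largest was led by *Gpx3* in WT, with 36.2% of the class, and by *C7* in KO, with 37.9%. Within that *C7*-led cluster the *Bmp4* level was 154 CPM in both libraries, and the ratio within clusters was 0.05.

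*Bmp5* (chromosome 9, 75775364 to 75900310, plus strand), a ligand best known from skeletal growth, was highest in mesenchymal cells. The WT levels were 363 CPM (346 to 379.7) in alveolar fibroblast-like, 326 CPM (297 to 357) in smooth muscle-like and 311 CPM (286 to 337) in Timp1-led mesenchymal cells. In KO they were 396 CPM (383 to 410.02), 441 CPM (403 to 481) and 306 CPM (286 to 328). Basal-like cells of KO, the stem cells of the airway, had 238 CPM (204 to 276), the highest level of the epithelial classes with at least 50 cells. Among smooth muscle-like cells the gene lay mainly in the *Hhip*-led cluster (791 and 765 CPM in WT and KO) and less in the *Acta2*-led one (90.6 and 67.4 CPM).

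The *Bmp5* ratio of smooth muscle-like cells was 0.43 (0.25 to 0.62), although both clusters had a lower level in KO than in WT. The *Acta2*-led cluster held 65.1% of the class in WT, and the *Hhip*-led one 60.7% in KO. AT2-like cells had 72.3 CPM (62.2 to 83.7) in WT and 72.4 CPM (69.9 to 74.96) in KO, a log2 ratio of 0.00 (−0.21 to 0.23). Krt8 transitional-like cells had 26.97 and 30.2 CPM, and AT1-like cells of KO 9.22 CPM (4.91 to 15.8). From AT2-like through Krt8 transitional-like to AT1-like cells of KO, *Bmp5* thus ran downwards and *Bmp4* upwards.

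*Bmp6* (chromosome 13, 38345107 to 38500302, plus strand) encodes the ligand by which liver endothelium controls iron balance. In WT it was at 1029 CPM (1012 to 1046) in general capillary-like and 1025 CPM (957 to 1096) in arterial-like cells. Cycling endothelial-like cells had 846 CPM (767 to 932), Car4 aerocyte-like cells, the thin capillary cells of gas exchange, 314 CPM (290.5 to 338), and venous-like cells 281 CPM (256 to 307). Lymphatic-like cells had 48.04 CPM on 7 UMIs. General capillary-like cells held 66.3% of all *Bmp6* UMIs of the WT library and 58.9% of those of KO, in which they were 2.14% of the kept cells.

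In general capillary-like cells of KO, *Bmp6* was at 797 CPM (736 to 862), a log2 ratio of −0.37 (−0.49 to −0.25). After thinning, a UMI was found in 56.5% (55.1 to 57.9) of WT and 52.5% (45.99 to 58.9) of KO cells (exact binomial 95% interval, medians before thinning 1631 and 1746 UMIs), so the interval of the smaller library covers the share of the other. A list of 10 pan-endothelial genes summed to 14616 CPM in this class of WT and 14638 CPM in KO, with none of the 10 past 2-fold. *Bmp6* also varied within the class, from 312 CPM in an *Epas1*-led to 1387 CPM in the *Adgrl3*-led cluster of WT, and from 260.1 to 1238 CPM in the same clusters of KO.

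**Figure D1:**
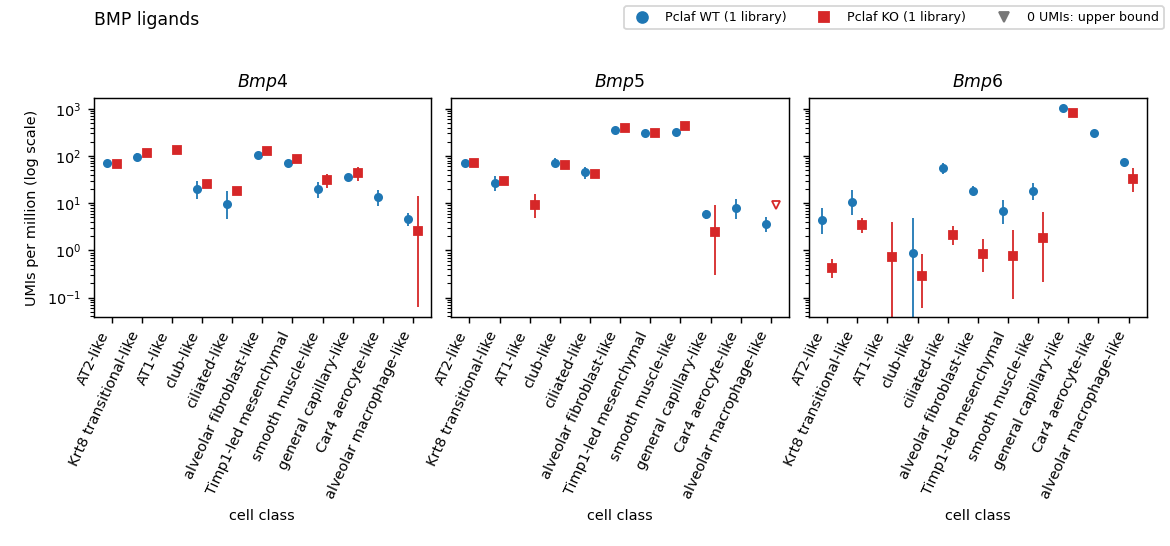
Level of *Bmp4*, *Bmp5* and *Bmp6* (CPM, log axis) in 11 cell classes, with circles for the *Pclaf* WT and squares for the *Pclaf* KO library, 1 library each, and exact Poisson 95% intervals as bars; an open triangle is the upper bound where no UMI was found. In AT2-like cells the libraries lie close together for *Bmp4* (71.1 and 68.9 CPM) and *Bmp5* (72.3 and 72.4 CPM). *Bmp5* is lower in KO in general capillary-like cells (5.80 and 2.52 CPM, on 2 KO UMIs), and *Bmp4* is higher in ciliated-like cells (log2 ratio 0.92). *Bmp6* is high in general capillary-like cells (1029 and 797 CPM). It is lower in KO than in WT in ciliated-like cells (55.5 and 2.17 CPM), where 53 of the 57 WT UMIs came from 1 cluster of 21 WT cells.

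Outside the endothelium, among classes with at least 50 cells, *Bmp6* was highest in pericyte-like cells of WT, the cells that wrap capillaries, at 251 CPM (204 to 305) on 99 UMIs, which overlaps the interval of venous-like cells. The list of pan-endothelial genes was at 5817 CPM there, and the KO library held 33 such cells, under the limit. Ciliated-like cells had 55.5 CPM (42.1 to 71.9) in WT and 2.17 CPM (1.32 to 3.35) in KO, a log2 ratio of −4.68 (−5.49 to −3.92). A *Dnah12*-led cluster of 21 WT and 3 KO cells, which also scored above 0 for a second lineage, held 53 of the 57 WT UMIs, and its levels were 286 and 266 CPM. The *Tmem212*-led cluster of 123 WT and 1093 KO cells, which is most of the class, was at 3.89 and 0.931 CPM on 3 and 8 UMIs. The ratio was −0.45 within clusters and −2.28 (−4.12 to −0.13) without the *Dnah12*-led cluster, so a few WT cells carried the value of the class. The ratio within clusters leans on the 3 KO cells of the *Dnah12*-led cluster, which held 11 of the 20 KO UMIs. Alveolar fibroblast-like cells had 18.5 CPM (14.98 to 22.7) and 0.8502 CPM (0.342 to 1.75), a log2 ratio of −4.45 (−5.80 to −3.35), and −3.35 within clusters, with 61 of the 94 WT UMIs in a *Gpx3*-led cluster of 916 WT and 27 KO cells. AT2-like cells had 11 UMIs (4.396 CPM) and 19 UMIs (0.426 CPM), a log2 ratio of −3.37 (−4.51 to −2.15), and −1.20 within clusters. In the *Slc34a2*-led cluster, with 7 and 9 of these UMIs, it was at 6.74 and 4.95 CPM. The thinned share of AT2-like cells with a UMI was 0% in WT and 0.0957% in KO, below the 1.04% of B cell-like cells of WT. In the latter, 55 of the 89 *Bmp6* UMIs came from 1 cluster of 338 WT cells and no KO cell. Whether the AT2-like shares are background was not tested.

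The pan-endothelial list was lower in KO in each of these classes too. It went from 1112 to 48.7 CPM in ciliated-like cells with 10 of 10 genes at least 2-fold lower, from 731 to 73.1 CPM in alveolar fibroblast-like cells with 10 of 10, and from 219 to 109.6 CPM in AT2-like cells with 9 of 10. None of the 10 was at 0 in these classes. Per 1000 UMIs of the list, *Bmp6* had 49.9 UMIs in WT and 44.5 in KO in ciliated-like, 25.4 and 11.6 in alveolar fibroblast-like, 20.1 and 3.89 in AT2-like, and 70.4 and 54.5 in general capillary-like cells. In cells without any UMI of the list the *Bmp6* log2 ratio was −2.61 in ciliated-like, −3.02 in alveolar fibroblast-like and −3.16 in AT2-like cells. The part of endothelial RNA in the ratios was not tested.

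*Grem1* (chromosome 2, 113746164 to 113758646, minus strand) was the rarest member, with 103 UMIs in WT and 35 in KO. In WT it was at 39.3 CPM (22.5 to 63.9) in cycling mesenchymal-like and 34.5 CPM (26.7 to 43.9) in Timp1-led mesenchymal cells. The former level rests on 16 UMIs from 4 of 126 cells. In KO the Timp1-led cells had 9.86 CPM (6.44 to 14.4), a log2 ratio of −1.81 (−2.52 to −1.13). The WT sum was 66 UMIs from 7 of 322 cells, and the KO sum was 26 UMIs from 1 of 380 cells, so the interval of the counts understates the error of the ratio. AT2-like cells had no *Grem1* UMI among 508 WT and 6328 KO cells, which with 3 counts as the floor allows up to 1.199 and 0.0673 CPM.

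*Bmpr2* (chromosome 1, 59763400 to 59879014, plus strand), the type II receptor, was detected in every class of the WT library with at least 50 cells and was highest in blood endothelium. In WT it was at 2540.1 CPM (2513 to 2567) in general capillary-like, 2489.7 CPM (2383 to 2599.6) in arterial-like, 2309 CPM (2246 to 2373) in Car4 aerocyte-like and 1608 CPM (1548 to 1669) in venous-like cells. In the epithelium of WT, Krt8 transitional-like cells had 189 CPM (164 to 216), AT2-like cells 150.3 CPM (135 to 166) and club-like cells 63.9 CPM on 72 UMIs. AT1-like cells of KO had 207 CPM (184 to 232), above the AT2-like cells of that library at 104 CPM (101 to 107).

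*Bmpr2* was lower in KO than in WT in each of the 16 comparable classes, B cell-like cells having no UMI in KO. The median log2 ratio over all genes compared was below 0 in these classes too, from −0.29 in Cryab-led epithelial to −0.02 in B cell-like cells. In adventitial fibroblast-like cells the *Bmpr2* interval held 0 (−0.27, −0.59 to 0.05), and in alveolar macrophage-like cells its ratio was −0.17 within clusters. The log2 ratio was −0.44 (−0.51 to −0.36) in general capillary-like cells (1876 CPM in KO), in which the endothelial list was level. It was −0.60 (−0.68 to −0.51) in alveolar fibroblast-like cells (392 and 259.6 CPM), −0.53 (−0.69 to −0.38) in AT2-like cells and −1.63 (−1.83 to −1.42) in ciliated-like cells (249 and 80.7 CPM), classes in which the list was lower in KO. Within clusters the last of these was −0.53. In cells with no UMI of the list the 3 ratios were −0.29, −0.13 and −1.04.

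*Bmpr1b* (chromosome 3, 141837136 to 142169425, minus strand), a type I receptor, had a narrow distribution. In WT it was at 367 CPM (322 to 417) in mesothelial-like cells, which line the lung surface, and at 339 CPM (306 to 375) in club-like cells, the secretory cells of the airway. In KO the levels were 229 CPM (203 to 257) and 180.1 CPM (172 to 188), and basal-like cells had 139.99 CPM (114 to 169.6). Within the club-like class it lay mainly in the *Scgb3a1*-led cluster (381 and 215 CPM in WT and KO) and little in the *Scgb1a1*-led one (7.92 and 3.502 CPM). AT2-like cells were at 1.998 and 1.77 CPM.

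The *Bmpr1b* ratio was −0.91 (−1.07 to −0.75) in club-like and −0.68 (−0.94 to −0.43) in mesothelial-like cells. In club-like cells thinned to 1000 UMIs, a UMI was found in 21.8% (15.1 to 29.8) of WT and 13.7% (11.5 to 16.1) of KO cells, and before thinning in 42.5% and 42.8% (median UMIs 4440 and 7338). The *Scgb3a1*-led cluster made up 55.7% of the class in WT and 58.7% in KO. In B cell-like cells of WT no thinned cell of 2603 had a UMI. Club-like cells held 39.6% of all *Bmpr1b* UMIs in WT and 66.5% in KO.

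*Smad6* (chromosome 9, 63953076 to 64022059, minus strand), an inhibitor of the pathway inside the cell that BMP itself switches on, was highest in arteries. Its WT level was 1307 CPM (1229.8 to 1387) in arterial-like, 517 CPM (488 to 548) in Car4 aerocyte-like, 393 CPM (382 to 403) in general capillary-like and 203 CPM (182 to 226) in venous-like cells, and none of these intervals overlapped. General capillary-like cells of KO had 294 CPM (258 to 335), a log2 ratio of −0.42 (−0.61 to −0.23). Smooth muscle-like cells had 67.8 and 40.3 CPM in WT and KO. AT2-like cells had 19.98 CPM (14.8 to 26.3) and 14.1 CPM (13.03 to 15.3), a log2 ratio of −0.50 (−0.92 to −0.06), and −0.18 within clusters. The thinned share of AT2-like cells with a *Smad6* UMI was 2.43% (1.26 to 4.21) in WT and 1.32% (1.06 to 1.64) in KO. In B cell-like cells of WT it was 1.19%.

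*Id1* (chromosome 2, 152736251 to 152737410, plus strand) is a target often used to read BMP activity. It was at 446 CPM (402 to 494) in arterial-like and 380.2 CPM (355 to 407) in Car4 aerocyte-like cells of WT. General capillary-like cells had 257 CPM (248 to 266) in WT and 366 CPM (325 to 411) in KO, a log2 ratio of 0.51 (0.33 to 0.68). In the same cells *Bmp6*, *Bmpr2* and *Smad6* had ratios below 0, as given above. After thinning, a UMI was found in 21.7% (20.5 to 22.9) of WT and 33.2% (27.3 to 39.5) of KO cells. *Id1* was higher in KO in each of the 6 clusters of the class, for example 256 and 299.7 CPM in the *Plcb1*-led and 291 and 510.5 CPM in the *Adgrl3*-led cluster, though 1 of the clusters held 5 KO cells.

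In the alveolar epithelium *Id1* was low. AT2-like cells had 22.8 CPM (17.3 to 29.5) in WT and 23.5 CPM (22.1 to 24.96) in KO, a log2 ratio of 0.04 (−0.34 to 0.46). Krt8 transitional-like cells had 141 CPM (119.9 to 165) and 64.2 CPM (59.1 to 69.6), a log2 ratio of −1.14 (−1.39 to −0.87). Of the 157 WT UMIs behind that value 75 came from 1 cell, and without the highest cell of each library the ratio was −0.30. The thinned share of Krt8 transitional-like cells with a UMI was 6.25% (3.37 to 10.5) in WT and 5.15% (4.02 to 6.49) in KO, and the intervals overlap. AT2-like cells, at 2.84% and 2.11%, were near the 1.69% of B cell-like cells of WT.

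Ciliated-like cells had more *Id1* than AT2-like cells did, with 159 CPM (135 to 185) in WT and 111 CPM (104 to 118) in KO, a log2 ratio of −0.52 (−0.76 to −0.27). In ciliated-like cells with no UMI of the endothelial list that ratio was 0.35. Mesothelial-like cells had 146 CPM (119 to 179) and 186 CPM (163 to 212). *Sftpd*-led epithelial cells of KO had 72.9 CPM (62.8 to 84.1), with 38 of their 188 UMIs in 1 cell, while the 27 such cells of WT held 4 UMIs.

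*Id2* (chromosome 12, 25093799 to 25097140, minus strand) was distributed differently from the other ID genes. Among WT classes with at least 50 cells it was highest in Stab2-led immune cells at 714 CPM (618 to 820.4), dendritic-like cells at 591 CPM (570.5 to 613) and NK cell-like cells at 563.97 CPM (524 to 606), and ID2 is known to be required for the development of NK cells and of some dendritic cells. AT2-like cells came next, with 327 CPM (305 to 350.1) in WT and 318 CPM (312 to 323) in KO, a log2 ratio of −0.04 (−0.14 to 0.06). After thinning, 27.8% and 24.6% of AT2-like cells had a UMI, against 2.11% of B cell-like cells of WT. General capillary-like cells had 86.3 CPM (81.4 to 91.3) and 84.3 CPM (65.3 to 107).

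In the other alveolar classes *Id2* was lower than in AT2-like cells. Krt8 transitional-like cells had 131 CPM (111 to 154) in WT and 135 CPM (128 to 143) in KO, and AT1-like cells of KO 36.2 CPM (26.9 to 47.6). *Sftpd*-led epithelial cells of KO, at 313 CPM (292 to 336), overlapped AT2-like cells, whose markers lead this cluster too. Within the AT2-like class of KO *Id2* ranged from 203 CPM in the *Lcn2*-led to 339 CPM in the *Scd1*-led cluster. Alveolar macrophage-like cells had 274 CPM (263 to 286) and 369.5 CPM (312 to 435), a log2 ratio of 0.43 (0.18 to 0.67). Different clusters were the largest of that class in the libraries, and the ratio was 0.41 within clusters. The KO sum was 146 UMIs from 42 of 106 cells, with 39.0% of them in 5 cells. The counting interval thus understates the error.

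*Id3* (chromosome 4, 136143497 to 136145755, plus strand) was high in vessels and mesenchyme. Its WT levels were 965 CPM (899.5 to 1035) in arterial-like, 666 CPM (628 to 706) in venous-like and 632 CPM (619 to 645) in general capillary-like cells. Timp1-led mesenchymal cells had 536 CPM (504 to 569.8), smooth muscle-like cells 495 CPM (459 to 533) and alveolar fibroblast-like cells 442 CPM (424 to 461). Per 1000 UMIs of the endothelial list, *Id3* had 605 UMIs in alveolar fibroblast-like cells of WT against 43.2 in general capillary-like cells.

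The *Id3* ratio differed in sign between classes. It was 0.32 (0.20 to 0.44) in general capillary-like cells (789 CPM in KO) and 0.31 (0.24 to 0.39) in alveolar fibroblast-like cells (549 CPM in KO). With finer clustering (resolution 1.2 in place of 0.8) the latter ratio was −0.28, below 0. In alveolar fibroblast-like cells, the *Gpx3*-led cluster of 799 WT and 464 KO cells had 367 and 459 CPM, and the *C7*-led cluster that was largest in KO had 308 and 259 CPM. A second *C7*-led cluster, of 263 WT and 715 KO cells, was level at 749 and 754 CPM and held 3483 of the 4520 KO UMIs. Within clusters the ratio of the class was −0.03. In AT2-like cells the ratio was −1.45 (−1.79 to −1.09), from 31.97 CPM (25.4 to 39.8) to 11.7 CPM (10.7 to 12.8), with −0.99 in those with no UMI of the endothelial list and −0.82 within clusters. The *Slc34a2*-led cluster held 44 of the 80 WT UMIs and was at 42.4 and 28.6 CPM. The thinned share of AT2-like cells with a UMI was 3.45% (2.02 to 5.46) in WT and 1.005% (0.773 to 1.28) in KO. Both are below the 6.49% of B cell-like cells of WT, which cannot serve as background for this gene. Per 1000 UMIs of the endothelial list, B cell-like cells of WT had 82.5 *Id3* UMIs, above the 43.2 of general capillary-like cells. Whether the AT2-like shares are background was not tested.

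Along the alveolar classes of KO, *Id3* was at 11.7 CPM in AT2-like, 55.00 CPM (50.3 to 60.03) in Krt8 transitional-like and 177 CPM (156 to 201) in AT1-like cells. In WT the levels were 31.97, 67.4 and 153 CPM, the last on 32 UMIs of 49 cells. *Id1* in KO was at 23.5, 64.2 and 40.4 CPM and had no such order. In KO *Id3* thus ran upwards and *Id2* downwards from AT2-like to AT1-like cells. The WT levels had the same order, but its 49 AT1-like cells were under the limit of 50 and had *Id2* at 38.2 CPM on 8 UMIs.

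**Figure D2:**
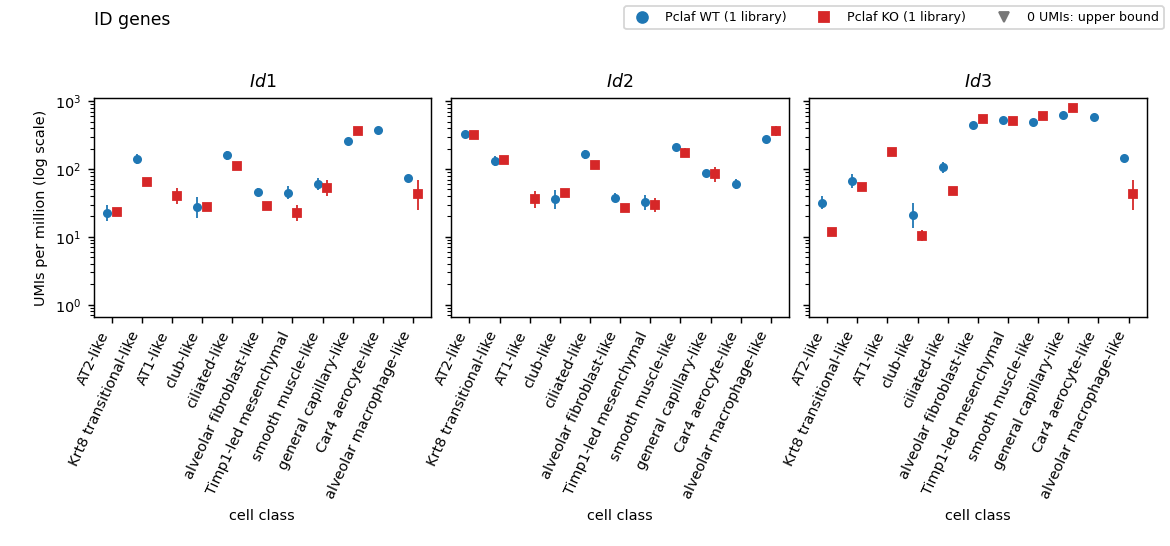
Level of *Id1*, *Id2* and *Id3* (CPM, log axis) in the same 11 cell classes, with circles for the *Pclaf* WT and squares for the *Pclaf* KO library, 1 library each, and exact Poisson 95% intervals as bars. *Id2* is higher in AT2-like cells (327 and 318 CPM) than in Krt8 transitional-like cells (131 and 135 CPM), and *Id3* is high in alveolar fibroblast-like (442 and 549 CPM) and general capillary-like cells (632 and 789 CPM).

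The classes with at least 50 cells gave 50 profiles of class and library. Across them the levels, as log2(CPM + 1), were most alike for *Bmpr2* and *Smad6* (Pearson r = 0.89), *Bmpr2* and *Id1* (0.83) and *Bmp6* and *Smad6* (0.80), and least for *Id2* and *Bmp5* (−0.33). These are descriptions, since profiles of 1 library share its depth and its free RNA. Among other genes, the closest to *Bmp6* was *Tspan7* (0.95), to *Id3* *Hmcn1* (0.94), to *Bmpr1b* *Mgat3* (0.92), to *Bmpr2* *Lrrc58* (0.92) and to *Bmp5* *Bmp3* (0.90), another BMP ligand. The closest to *Bmp4* was *Phldb2* (0.90), to *Smad6* *Sema3f* (0.89) and to *Id1* *Cdc42bpb* (0.86). Likeness was weaker for *Grem1*, closest to *Cilp* (0.73) and *Fst* (0.72), and for *Id2*, closest to *Prdm1* (0.63).

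**Figure D3:**
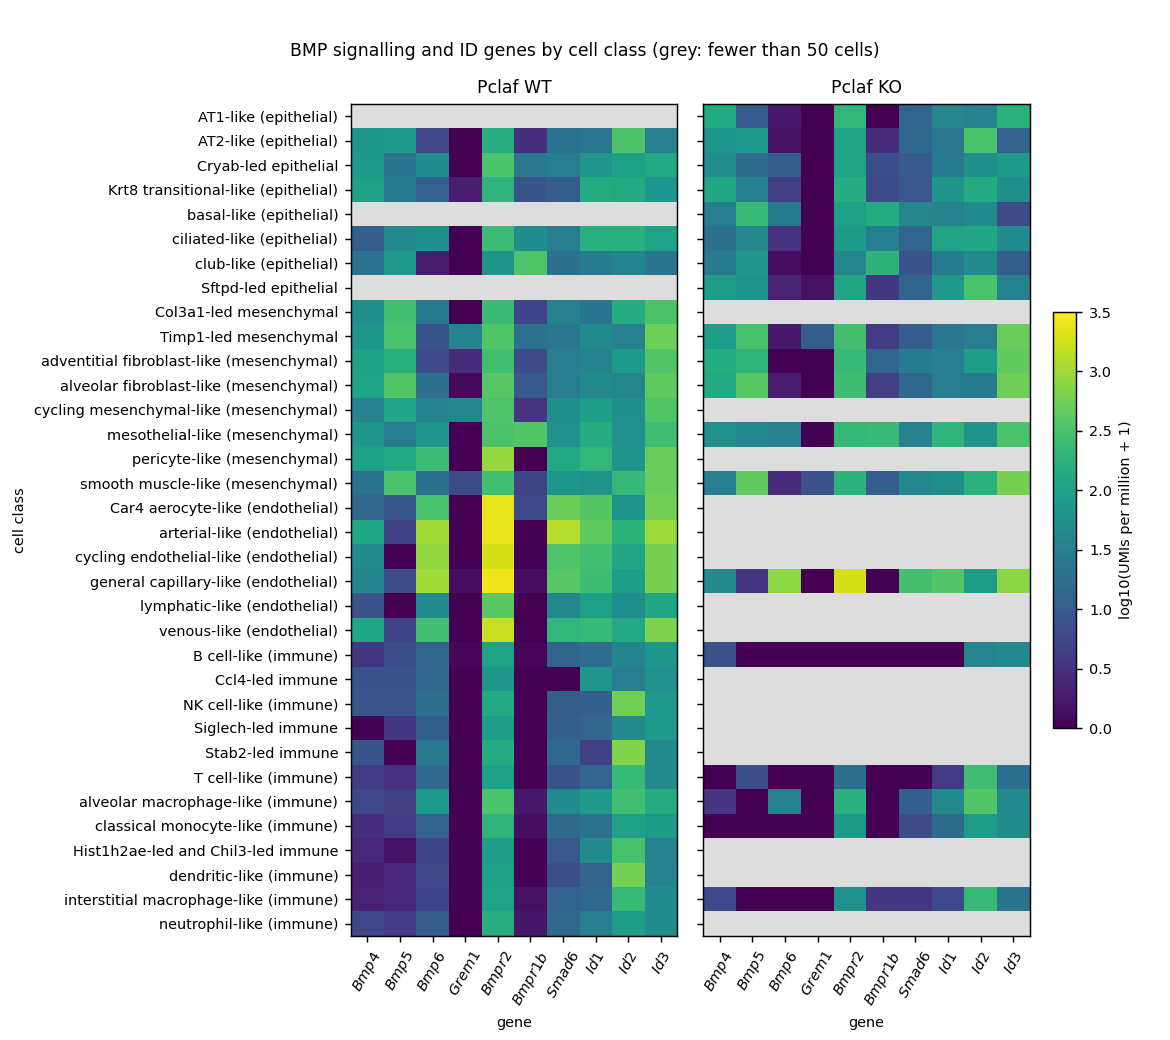
Level of the 10 members by class, as log10(CPM + 1), for the *Pclaf* WT (left) and *Pclaf* KO (right) library; grey marks fewer than 50 cells. Blood endothelial classes are bright for *Bmp6*, *Bmpr2*, *Smad6*, *Id1* and *Id3*, and *Bmpr1b* stands out in mesothelial-like and club-like cells (367 and 339 CPM in WT).

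Counting members at least 2-fold lower in KO, there were 2 of 9 compared in AT2-like cells (*Bmp6* and *Id3*), where 6.05% of all genes compared were, and 2 of 9 in Krt8 transitional-like cells (*Bmp6* and *Id1*; 4.66%). There were 4 of 9 in ciliated-like cells (*Bmp6*, *Bmpr2*, *Smad6* and *Id3*; 5.53%) and 2 of 8 in club-like cells (*Smad6* and *Id3*; 6.54%). In the mesenchyme there were 3 of 9 in alveolar fibroblast-like cells (*Bmp6*, *Bmpr1b* and *Smad6*; 7.08%) and 3 of 9 in Timp1-led cells (*Grem1*, *Bmpr1b* and *Smad6*; 3.88%). In general capillary-like cells it was *Bmp5*, on 2 KO UMIs (6.97%), whose ratio turned above 0 with called doublets removed (1.05). The 43 WT *Bmpr1b* UMIs of alveolar fibroblast-like cells came from 20 of 2528 cells, with 62.8% in 5 cells. Its 27 KO UMIs there came from 25 of 1942 cells. In Timp1-led cells 5 cells held 59.5% of the 37 WT *Bmpr1b* UMIs. The intervals of these counts understate the error. In ciliated-like cells the *Dnah12*-led cluster held 143 of 256 *Bmpr2*, 22 of 29 *Smad6* and 69 of 109 *Id3* UMIs of WT. Without it the ratio was −0.80 (−1.09 to −0.50) for *Bmpr2*, 0.59 (−0.50 to 1.94) for *Smad6* and −0.01 (−0.47 to 0.50) for *Id3*, none of them 2-fold lower, and 1.15 (0.08 to 2.49) for *Bmp4* (7 and 170 UMIs), which was then past 2-fold higher. In ciliated-like cells with no UMI of the endothelial list, the ratios of *Smad6* and *Id3* were above 0, at 2.26 and 0.48. No interval was computed for these, and WT held 7 *Smad6* UMIs outside the *Dnah12*-led cluster. Whether a cell has no such UMI also depends on its depth, with class medians of 5650 UMIs in WT and 7195 in KO. Within clusters, *Id3* in AT2-like and *Smad6* in alveolar fibroblast-like cells were under 2-fold too, at −0.82 and −0.79. With all clusters in, no member was at least 2-fold higher in any of these 7 classes, where 2.46% of all genes compared were in AT2-like, 4.97% in Krt8 transitional-like, 4.78% in ciliated-like, 4.83% in club-like, 2.08% in alveolar fibroblast-like, 1.89% in Timp1-led and 3.48% in general capillary-like cells. The other 9 classes compared had no member at least 2-fold higher either, where 6.15% of all genes were in mesothelial-like, 2.14% in smooth muscle-like, 3.29% in adventitial fibroblast-like, 2.17% in Cryab-led epithelial, 2.85% in alveolar macrophage-like, 4.2% in interstitial macrophage-like, 3.79% in classical monocyte-like, 4.26% in T cell-like and 6.17% in B cell-like cells.

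At least 2-fold lower in these 9 were 1 of 9 members in mesothelial-like and 1 of 8 in smooth muscle-like cells, *Bmp6* in both (4.95% and 5.18% of all genes), and 0 of 7 in adventitial fibroblast-like cells (3.37%). In Cryab-led epithelial cells, a shallow cluster led by *Cryab* and *Ager*, 5 of 9 were lower (*Bmp6*, *Bmpr2*, *Bmpr1b*, *Smad6* and *Id1*; 15.7%). Among immune classes the lower members were 3 of 8 in alveolar macrophage-like (*Bmp6*, *Smad6* and *Id3*; 12.6%), 3 of 6 in interstitial macrophage-like (*Smad6*, *Id1* and *Id3*; 10.5%), 2 of 6 in classical monocyte-like (*Bmpr2* and *Smad6*; 13.6%), 3 of 6 in T cell-like (*Bmpr2*, *Id1* and *Id3*; 15.0%) and 1 of 7 in B cell-like cells (*Bmpr2*, with no KO UMI; 14.0%). Some of these calls rest on few KO UMIs and have intervals that hold 0. They are *Smad6* in interstitial macrophage-like and in classical monocyte-like cells and *Id1* in T cell-like cells, each on 1 KO UMI. *Id1* in interstitial macrophage-like cells, on 2 KO UMIs, is another. *Bmpr1b* in Cryab-led epithelial cells rests on 14 WT UMIs from 4 cells and 6 KO UMIs from 4 cells. Its interval leaves out 0 but understates the error. In alveolar macrophage-like cells, a *Chil3*-led cluster of 250 WT and 2 KO cells scored above 0 for a second lineage. It held 531 of 636 *Bmp6* and 291 of 385 *Smad6* UMIs of WT. Without it the ratio was −1.59 (−4.65 to 0.30) for *Bmp6* and −2.43 (−7.75 to 0.09) for *Smad6*, on 2 and 1 KO UMIs and with intervals that hold 0, and −1.49 (−2.40 to −0.70) for *Id3*. Within clusters the *Bmp6* ratio was above 0, at 0.37, and that of *Smad6* was −0.83. Both lean on the cluster of a second lineage, whose 2 KO cells held 11 of 13 *Bmp6* and 3 of 4 *Smad6* UMIs of KO.

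The median log2 ratio of the members compared was −0.17 in AT2-like and −0.30 in Krt8 transitional-like cells, beside −0.15 and −0.08 over all genes compared. It was −0.60 in alveolar fibroblast-like and −0.20 in general capillary-like cells, beside −0.04 and −0.07. Scaling by TMM factors (trimmed mean of M values) in place of total UMIs would add 0.19 to every log2 ratio in AT2-like, 0.17 in Krt8 transitional-like, 0.28 in club-like and 0.02 in general capillary-like cells. It would add 0.34 in Cryab-led epithelial cells, the largest shift of the classes compared.

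In the other epithelial and mesenchymal classes the endothelial list was again lower in KO. It went from 179.8 to 90.8 CPM in Krt8 transitional-like cells with 8 of 10 genes at least 2-fold lower, from 186 to 63.8 CPM in club-like cells with 8 of 10, and from 256 to 78.1 CPM in Timp1-led cells with 9 of 10 and 1, *Tie1*, at 0 in KO. A list of 10 pan-immune genes was lower in KO as well, for example from 306 to 163 CPM in AT2-like cells with 9 of 10 at least 2-fold lower. A list of 10 AT2 markers went the other way. It rose from 4388 CPM in WT to 17392.5 CPM in KO in ciliated-like cells, with 6 of 10 genes at least 2-fold higher. In Krt8 transitional-like cells it rose from 21054 to 54188 CPM with 5 of 10, and in alveolar fibroblast-like cells from 505 to 2151 CPM with 7 of 10. The part of such RNA in the ratios of the members, *Bmp4* and *Bmp5* among them, was not tested.

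**Figure D4:**
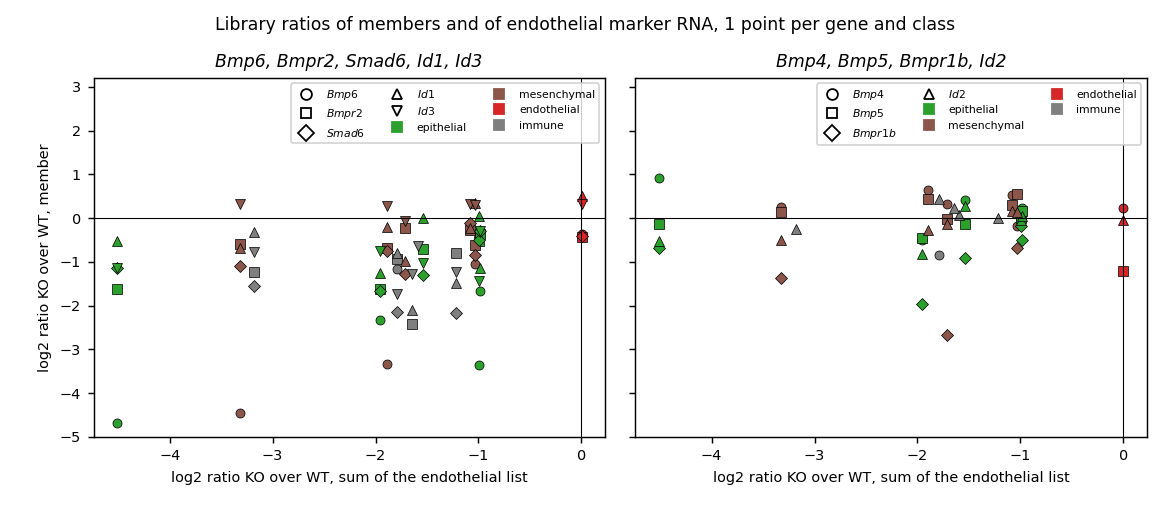
Log2 ratio (*Pclaf* KO over *Pclaf* WT) of a member against that of the summed pan-endothelial list, 1 point per gene and class. The left panel shows *Bmp6*, *Bmpr2*, *Smad6*, *Id1* and *Id3*, and the right panel *Bmp4*, *Bmp5*, *Bmpr1b* and *Id2*. *Bmp4* too had its highest WT level in endothelium, at 123 CPM in arterial-like cells. Marker shape gives the gene and color the lineage, and in the left panel *Bmp6* is lowest, at −4.68 in ciliated-like cells, while *Bmp4* in the right panel is at −0.05 in AT2-like cells.

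The rest of the pathway was read from 46 listed genes, all of which are in the files. The highest ligand besides the members was *Bmp3*, at 206 CPM (196 to 216) in alveolar fibroblast-like cells of KO. Among receptors, *Eng* had 1394 CPM in arterial-like and *Acvrl1* 970.2 CPM in Car4 aerocyte-like cells of WT, and both are known for vascular BMP signalling. *Smad1*, a signal carrier, had 549 CPM in lymphatic-like, and *Smad7*, an inhibitor, 601 CPM in arterial-like cells. *Gpc3*, which encodes a glypican of the cell surface, had 4346 CPM in mesothelial-like cells, and the extracellular genes *Fstl1* and *Nbl1* had 1273 and 1142 CPM in adventitial fibroblast-like cells. The target *Tbx3* had 809 CPM in Car4 aerocyte-like cells.

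In AT2-like cells 31 of the 46 could be compared. Of these, 1 was at least 2-fold higher and 4 at least 2-fold lower in KO, where 2.46% and 6.05% of all genes compared were. The 4 lower were *Eng* (11.2 and 1.39 CPM in WT and KO), *Tbx3* (3.597 and 0.561 CPM), *Acvrl1* (5.595 and 0.965 CPM) and *Fstl1* (6.79 and 1.57 CPM), whose top classes are endothelial or fibroblast-like. The higher one was *Smad9*, on 1 WT UMI, with an interval that holds 0. In Krt8 transitional-like cells 3 of 29 were higher, where 4.97% of all genes compared were. They were the receptor *Acvr2b* (log2 ratio 1.84, 0.25 to 4.15) and the antagonist *Fst* (1.79, 0.19 to 4.10), each on 3 WT UMIs, and the decoy receptor *Bambi* (1.18, 0.10 to 2.52), on 7. The 2 lower (4.66% of all genes) were *Fstl1* (−1.89) and *Eng* (−1.56).

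*Bambi* was also the 1 pathway gene of 32 at least 2-fold higher in general capillary-like cells (3.48% of all genes), at 9.46 and 20.1 CPM (log2 ratio 1.09, 0.24 to 1.84). In that class 3 of 32 were lower (6.97% of all genes). In club-like cells *Bambi* was again the 1 higher gene of 26 (4.83% of all genes), at 4.44 and 11.04 CPM (log2 ratio 1.32, 0.05 to 2.97). In Timp1-led cells the antagonist *Fst* was at 195 CPM (175 to 215) in WT and 50.1 CPM (41.9 to 59.4) in KO, a log2 ratio of −1.96 (−2.26 to −1.67), lower in KO as *Grem1* was. The antagonist *Chrdl1* had 7.84 and 18.2 CPM there, a log2 ratio of 1.21 (0.35 to 2.16). In alveolar fibroblast-like cells 2 of 36 were lower (7.08% of all genes), the receptor *Eng* (−1.36) and the target *Hey1* (−1.21).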

How the data were processed

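Single-cell RNA of 1 *Pclaf* WT and 1 *Pclaf* KO library was made with the 10x Genomics 3′ v3.1 kit. The authors deposited UMI counts per gene and barcode, not normalized. The submitters' processing notes name Cell Ranger 3.1.0 and STAR, whereas the matrix headers name Cell Ranger 5.0.0. The genes and lists described here were chosen with earlier results of these data known. Every deposited barcode had at least 500 UMIs, and the libraries summed to 98171818 (WT) and 111267567 (KO) UMIs.

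Cells with 200 to 5000 detected genes and at most 20% mitochondrial UMIs were kept, and both libraries were clustered together (scanpy 1.11.5, leidenalg 0.10.2, 2000 variable genes, 20 principal components, resolution 0.8), first into lineages and then within each lineage. Clusters were named from marker lists, and 2823 WT and 548 KO cells in clusters of mixed lineage or markers were left out. Scrublet called 7.76% of WT and 2.70% of KO cells doublets, against 24.1% and 12.5% expected at these loads, and they were removed only as an alternative.

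UMIs were summed per class and library. No p-value was computed. Intervals for levels, shares and ratios are exact (scipy 1.17.1), and a count of 0 entered 2-fold calls as 3 counts. The steps were checked on simulated counts. TMM factors came from edgeR 4.0.16. Gene positions are from GENCODE annotation of GRCm38, which matched 31011 of 31053 feature IDs. *Bmp5* and *Bmpr2* overlap a gene of the same strand there, and how shared reads were counted is not given in the sources used here.

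Named genes are the members and *Pclaf*; of the pathway genes, the 3 highest per role and, per class, up to 4 at least 2-fold apart whose interval leaves out 0; and the 3 genes most alike each member with a mean of at least 10 CPM. *Smad9* was named after its value was seen. A member's main ratio is that of the class whose smaller library sum is the largest. Alternatives were 10 components, resolutions 0.4 and 1.2, no doublets, a mitochondrial limit of 10%, no upper limit on genes, gating each cell by its markers, clustering each library alone, TMM factors, totals that leave out mitochondrial and ribosomal protein genes, thinning to 1000 UMIs, and gene filters of 1 and 100 UMIs. Chosen after seeing the data were ratios within clusters (Mantel-Haenszel), leaving out clusters that scored above 0 for a second lineage, leaving out the shared barcodes, leaving out the cell with the most UMIs of the gene, and using only cells with no UMI of the endothelial list.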

Additional observations from a re-analysis of the deposited data

Results flagged for a closer look

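For each of the ID genes the *Pclaf* KO over *Pclaf* WT ratio lay above 0 in some classes and below 0 in others by its counting interval. The difference between classes was not tested, since each class is 1 sample per genotype. *Id1* had a log2 ratio of 0.51 in general capillary-like cells and −1.26 in Cryab-led epithelial cells, a difference of 1.78, and was higher in 1 and lower in 6 of 16 classes. *Id2* had 0.43 in alveolar macrophage-like and −0.82 in Cryab-led epithelial cells, a difference of 1.25, and was higher in 1 and lower in 4. *Id3* had 0.32 in adventitial fibroblast-like and −1.74 in alveolar macrophage-like cells, a difference of 2.06, and was higher in 5 and lower in 7. Within clusters the ratios in alveolar macrophage-like cells were 0.41 for *Id2* and −1.18 for *Id3*. Of the 5 classes in which *Id3* was higher, alveolar fibroblast-like cells had −0.03 within clusters. In Cryab-led epithelial cells the endothelial list went from 1150 to 297 CPM and the pan-immune list from 836 to 84.4 CPM. In each list 10 of 10 genes were at least 2-fold lower in KO. Per 1000 UMIs of the endothelial list, *Id1* had 58.1 UMIs there in WT and 93.6 in KO, and *Id2* 87.1 and 190.6. The part of such RNA in these ratios was not tested. Scaling by TMM factors would add 0.34 to each log2 ratio of Cryab-led epithelial cells.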

How the results depend on the processing

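No paired analysis was possible because each genotype has 1 library and the labels give no replicate numbers. For the same reason no library was left out in turn.

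The main ratios of *Bmp6* and *Smad6* in general capillary-like, *Bmpr2* in alveolar fibroblast-like and *Bmpr1b* in club-like cells stayed below 0, and those of *Bmp4* in alveolar fibroblast-like and *Id1* in general capillary-like cells above 0, under each alternative run. *Grem1* in Timp1-led cells ranged from −2.07 to −1.47 over the 6 alternatives that gave a value. Values outside the counting interval follow, as log2 ratios.

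In alveolar fibroblast-like cells *Bmp4* was 0.46 at resolution 1.2, 0.54 with no upper limit on genes and 0.055 within clusters. *Bmp5* was 0.25 and 0.23 at resolutions 0.4 and 1.2, 0.042 without doublets, 0.0086 at a mitochondrial limit of 10%, 0.42 with no upper limit, 0.28 with each library clustered alone, 0.26 thinned and, below 0, −0.20 within clusters. *Bmpr2* was −0.47 without doublets, −0.37 at the 10% limit, −0.45 with no upper limit, −0.42 gated by markers, −0.47 within clusters and −0.29 in cells with no endothelial UMI. *Id3* was 0.029 with 10 components, 0.18 and −0.28 at resolutions 0.4 and 1.2, 0.51 with no upper limit and −0.026 within clusters. In general capillary-like cells *Bmp6* was −0.19 gated, −0.56 with each library alone and −0.19 thinned, and *Id1* was 0.79 thinned. *Bmpr1b* in club-like cells was −0.46 and −0.35 at resolutions 0.4 and 1.2, −0.65 at the 10% limit, −0.73 gated, −1.19 with each library alone, −0.63 with TMM factors, −1.24 thinned and −1.20 in cells with no endothelial UMI. *Id2* in AT2-like cells was 0.066 at the 10% limit, 0.093 with each library alone, 0.15 with TMM factors, −0.21 thinned and 0.14 in cells with no endothelial UMI.

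Turned signs are listed only for ratios at least 2-fold apart among the 63 ratios checked. Smaller ratios, such as *Id1* in ciliated-like cells, and ratios outside those 63 are not in the list. Signs turned for *Bmp5* in general capillary-like cells without doublets (1.05), gated (0.57) and with each library alone (0.88). They also turned for *Smad6* in ciliated-like cells at resolution 0.4 (0.59), without doublets (0.26), within clusters (0.31), without the *Dnah12*-led cluster (0.59) and in cells with no endothelial UMI (2.26), and for *Id3* there at resolution 0.4 (0.0067) and in cells with no endothelial UMI (0.48). The cause was not tested. For ratios other than the main ones, 120 further values lay outside the counting interval and 608 lay inside it.

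Counts of genes at least 2-fold apart fell with a filter of 100 UMIs, which tests fewer genes. They were 132 higher and 197 lower in AT2-like, 153 and 94 in Krt8 transitional-like, 156 and 174 in ciliated-like, 106 and 132 in club-like, 106 and 518 in general capillary-like, 63 and 279 in alveolar fibroblast-like and 29 and 88 in Timp1-led cells. With a filter of 1 UMI, genes lower were 2445 in AT2-like, 3249 in Krt8 transitional-like, 2375 in ciliated-like, 2542 in club-like, 2054 in alveolar fibroblast-like and 1306 in Timp1-led cells. Genes higher were then 1535 in general capillary-like, 769 in alveolar fibroblast-like and 714 in Timp1-led cells. With TMM factors club-like cells had 846 higher and 366 lower.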
